A study of Caenorhabditis elegans with 14 samples.

Results

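The genes described here are those that differed between early embryos of the nematode Caenorhabditis elegans without the heterochromatin protein HPL-2 and wild-type early embryos. Samples were chosen by the genotype in their labels, which gave 7 of the 14 samples of the study, 4 of the hpl-2 mutant and 3 of the wild type. The mutant carries the deletion allele hpl-2(tm1489), and the wild type is the laboratory strain N2 Bristol. The labels name no transgene, marker chromosome or drug for either genotype, and both were grown at 20 °C in synchronized culture. The remaining 7 samples were hpl-2-FFAA(px112) and met-2(n4256) hpl-2(tm1489) embryos, which entered the fit for its filter on low counts and its estimate of replicate spread. RNA was depleted of ribosomal RNA and sequenced, and the deposited values are read counts per gene. The labels call every sample embryo, without a cell stage, while their source and cell type fields read yeast cells. Their extraction notes speak of wild-type embryos held at stated temperatures for 2 h, so the exact handling before lysis is not known. Nothing in the labels says that replicates were separate cultures, so the p-values rest on a spread between these samples that may be technical.

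HP1 proteins carry a chromodomain that binds histone H3 methylated at lysine 9 and a chromoshadow domain through which they form dimers and recruit partners. HPL-2 is 1 of a pair of HP1 homologs in C. elegans, and in embryos it is found on the repeat-rich arms of the autosomes and at many active genes. Worms without it are known for reduced fertility at raised temperature, for vulval defects shared with the synMuv class of chromatin mutants and for germline genes switched on in somatic cells. MET-2 is the methyltransferase that writes most mono- and dimethylation of lysine 9 in embryos.

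The libraries held 5497160 to 6390870 counts in the hpl-2 mutant and 5846490 to 6032200 counts in the wild type. Levels are given as CPM, counts brought to one library size with the trimmed mean of M-values (TMM), and changes as log2 of mutant over wild type. The deleted gene stood at 5.36, 3.70, 4.29 and 4.30 CPM in the 4 mutant libraries, against 89.7, 100.1 and 97.9 CPM in the 3 wild-type libraries (log2 -4.44, SE 0.108). All mutant libraries thus carried the low hpl-2 level of their label. Mutant replicate 1 stood apart from the other mutant libraries. Its counts differed from theirs with a chi-square per degree of freedom of 2.13 to 3.66, against 1.16 to 1.53 among mutant replicates 2 to 4 and 1.17 to 1.28 among the wild-type libraries. Of 2953 called genes at 20 CPM or more, it was the mutant library nearest to the wild type for 65.6%. For some of the counts below the value without it is given too. Some counts given only with it also moved. Without it 29 homeobox genes fell, against 25 with it, and 27 respiratory chain genes rose, against 23.

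Summed levels of stage markers differed between the groups as well. The 32 tested genes of the list of maternal oocyte and one-cell transcripts summed to 15366 to 17428 CPM in the mutant and 13299 to 13622 CPM in the wild type. Early zygotic genes summed to 3307 to 3582 CPM in the mutant and 4099 to 4157 CPM in the wild type. Genes of late differentiation summed to 658 to 903 CPM in the mutant, which overlapped the 871 to 972 CPM of the wild type. Vitellogenin genes, made in the adult intestine, were near 0 in both groups, at 1.89 to 3.05 CPM in the mutant and 2.47 to 3.37 CPM in the wild type. The first pair of sums did not overlap between the groups, and neither did the second. Their part in the results below was not tested. In RNA from whole embryos, fewer cells of a type and less RNA per cell cannot be told apart.

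Between the hpl-2 mutant and the wild type many genes differed by a little and few genes by a lot. Of 9498 genes tested, 1915 rose (20.2%) and 2053 fell (21.6%) in the mutant by edgeR's quasi-likelihood test at a Benjamini-Hochberg adjusted p below 0.05. The median log2 change was 0.31 among the genes that rose and -0.45 among those that fell. Most changes were smaller than 1.5-fold, as in 1524 of the genes that rose (79.6%) and 1345 of those that fell (65.5%). At least 2-fold changes were called for 217 genes that rose (2.28%) and 155 genes that fell (1.63%). Without mutant replicate 1 the count of genes that fell at least 2-fold was 257. The levels of all mutant libraries lay outside the wild-type range for 201 of the 217 and 144 of the 155, while 49.0% of all genes tested had no such overlap.

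The genes with the larger changes were mostly weakly expressed. The 217 that rose at least 2-fold had a median of 3.33 CPM in the mutant and 1.17 CPM in the wild type, and 189 of them lay under 5 CPM in the wild type. The 155 that fell at least 2-fold had a median of 1.78 CPM in the mutant and 4.18 CPM in the wild type. By mean level over the 7 libraries, 7.84% of the 1823 genes between 1 and 5 CPM rose at least 2-fold. That share was 2.51% between 5 and 20 CPM, 0.436% between 20 and 100 CPM and 0.0458% between 100 and 500 CPM. Calls of any size followed the opposite order, with 10.5% of genes between 1 and 5 CPM and 31.5% of those between 100 and 500 CPM called higher. At low levels few changes under 2-fold passed the test. Between 1 and 5 CPM, 143 of the 192 genes called higher rose at least 2-fold. What the counts allow to be called differs with level, so these shares do not give how the size of the effect depends on level. The low-count filter used all 14 libraries, so a weak gene could pass it through mutant libraries in which it was high. With the 2 genotypes fitted alone, 8898 genes were tested. Of the 217 rises 180 kept their call there, and of the 155 falls 124 did.

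**Figure D1:**
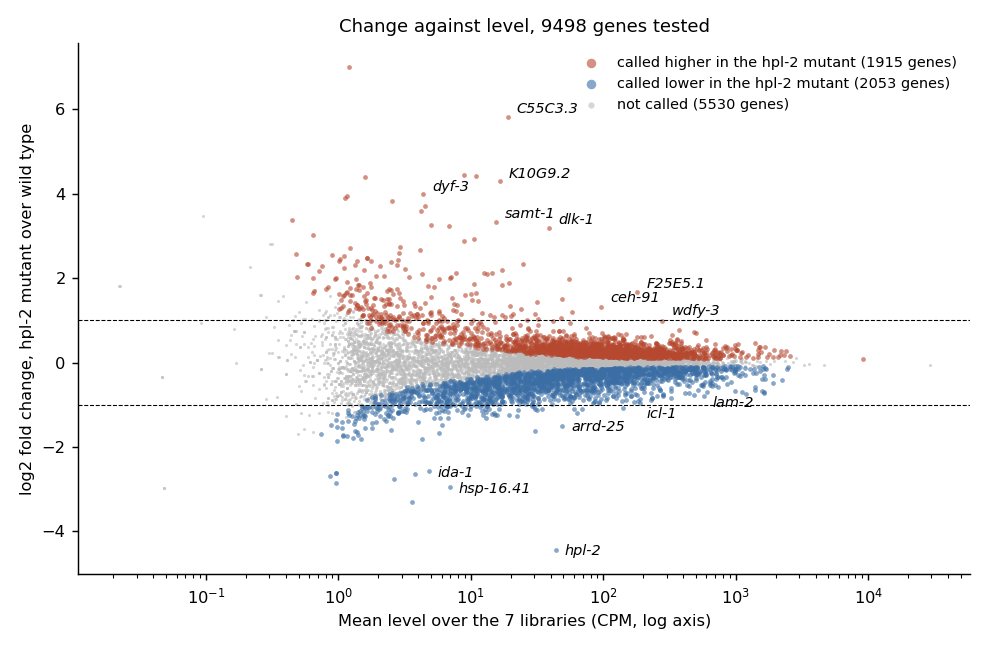
The log2 change of hpl-2 mutant over wild type (vertical axis) is plotted against the mean CPM over the 7 libraries (horizontal log axis) for the 9498 genes tested, with genes called higher in red, genes called lower in blue and dashed lines at a 2-fold change. Points past the dashed lines lie mostly at low levels, and most called genes at high levels lie close to 0.

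Genes that rose at least 2-fold included receptors, channels and transporters of differentiated neurons and muscle. The potassium channel subunit gene twk-2 stood at 22.9, 20.9, 20.3 and 22.4 CPM in the mutant, against 5.26, 5.23 and 4.29 CPM in the wild type (log2 2.13, SE 0.130). Every mutant library was high and no library of either group strayed from its group. The neuropeptide receptor gene npr-37 stood at 17.3, 18.8, 21.5 and 17.2 CPM in the mutant, against 4.92, 2.87 and 5.11 CPM in the wild type (log2 2.12, SE 0.171). Its groups did not overlap either. Of 94 neuropeptide receptor genes in the table, 19 had enough counts to be tested, and of these 4 rose (21.1%, beside 20.2% of all genes tested) and 0 fell by edgeR, with 0 lower at an unadjusted p below 0.05 and 0 lower in DESeq2. The 4 were npr-37, npr-34, npr-4 and egl-6, and egl-6 lost its call without wild-type replicate 2 (adjusted p = 0.0608 by the quasi-likelihood test of edgeR, Benjamini-Hochberg adjusted). The receptor gene npr-34 averaged 2.60 ± 0.723 CPM in the mutant and 0.890 ± 0.501 CPM in the wild type (SD, n = 4 and 3). The PDF receptor gene pdfr-1, a G protein-coupled receptor that is not on that list, averaged 2.90 ± 0.762 CPM in the mutant and 1.00 ± 0.322 CPM in the wild type.

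Receptor guanylyl cyclases serve as sensory receptors, and 3 of their genes rose. The cyclase gene gcy-18, used by the thermosensory AFD neurons, stood at 4.89, 5.70, 4.12 and 5.55 CPM in the mutant, against 1.02, 1.01 and 1.65 CPM in the wild type (log2 2.03, SE 0.246). Its lowest mutant library lay above its highest wild-type library. Of 31 receptor guanylyl cyclase genes 8 were tested, 3 rose (37.5%) and 1 fell, a call that was lost without wild-type replicate 3. The cyclase gene gcy-19 averaged 10.6 ± 0.925 CPM in the mutant and 4.08 ± 0.833 CPM in the wild type. The vesicular glutamate transporter family gene vglu-2 stood at 12.0, 16.9, 16.0 and 16.8 CPM in the mutant, against 5.43, 4.55 and 4.61 CPM in the wild type (log2 1.66, SE 0.186). Mutant replicate 1 was its lowest mutant library and still above the wild type. The betaine transporter gene snf-3 (log2 2.43) and the pharyngeal nicotinic receptor subunit gene eat-2 (log2 2.19) also rose, at mutant means of 4.31 and 2.34 CPM. The tyramine receptor gene ser-2 rose by a log2 of 1.41 to 3.27 ± 0.565 CPM in the mutant, against 1.23 ± 0.339 CPM in the wild type. Among these genes, vglu-2, snf-3, eat-2 and pdfr-1 were picked for their function after their values were seen.

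The lists of neuronal genes as a whole did not move one way. Of 247 ion channel and ligand-gated receptor genes 61 were tested, 9 rose and 5 fell, which is 14.8% and 8.2% of those tested. Over all genes tested these shares were 20.2% and 21.6%. Under a stricter filter on low counts 5 channel genes rose, and without wild-type replicate 1 or 2 or mutant replicate 2, 3 fell. Of 45 synaptic transmission genes 31 were tested, 7 rose (22.6%) and 5 fell (16.1%). The synaptic count that fell was 3 without any 1 of wild-type replicates 2 and 3 and mutant replicates 2 and 3. Without mutant replicate 1, 9 rose and 4 fell. Of 1351 chemoreceptor genes 56 were tested, 5 rose (8.93%) and 7 fell (12.5%), and 3 rose without wild-type replicate 3. Of 58 ciliary genes 22 were tested, 1 rose (4.55%) and 3 fell (13.6%). The majority turned to 2 higher and 1 lower without wild-type replicate 1. The count that fell was 5 without mutant replicate 1 and 1 without wild-type replicate 3 or mutant replicate 2, 3 or 4.

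Regulators of growth, timing and signalling also stood among the genes that rose at least 2-fold. The SMAD gene sma-4, a transducer of the body size branch of TGF-beta signalling, stood at 23.8, 24.5, 29.5 and 25.4 CPM in the mutant, against 5.43, 7.75 and 3.79 CPM in the wild type (log2 2.19, SE 0.158). Its mutant libraries were all at more than the highest wild-type level, without overlap. The hunchback-like heterochronic gene hbl-1, a transcription factor of larval timing, stood at 27.0, 25.9, 21.1 and 26.3 CPM in the mutant, against 7.13, 7.42 and 6.26 CPM in the wild type (log2 1.85, SE 0.198). The homeobox gene ceh-91 stood at 116, 138, 131 and 137 CPM in the mutant, against 52.8, 50.4 and 53.1 CPM in the wild type (log2 1.32, SE 0.0751). Mutant replicate 1 was the lowest mutant library for sma-4 and ceh-91 and the highest for hbl-1. These 3 genes were picked after their values were seen.

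The MAP kinase kinase kinase gene dlk-1, needed for axon regeneration, stood at 53.1, 67.0, 61.3 and 69.7 CPM in the mutant, against 6.96, 6.91 and 6.59 CPM in the wild type (log2 3.20, SE 0.168). An exon of dlk-1 overlaps the gene mec-19, and no source used here tells whether the counting used strand, so reads of these genes may not be told apart. The gene feh-1, which encodes a homolog of the amyloid precursor protein binding protein Fe65, stood at 14.8, 14.3, 14.8 and 12.4 CPM in the mutant, against 1.87, 2.36 and 1.48 CPM in the wild type (log2 2.88, SE 0.224). Its mutant libraries lay close together, far above the wild type. The NIMA-related kinase gene nekl-1 averaged 11.1 ± 2.43 CPM in the mutant and 1.17 ± 0.584 CPM in the wild type (log2 3.23, SE 0.277). The fibroblast growth factor gene let-756 (log2 2.01) overlaps C05D11.5 and the zinc finger and formin homology gene fozi-1 (log2 2.93) overlaps K01B6.4, and each overlapping partner rose at least 2-fold too. Over the genes named in this and the preceding paragraph, adjusted p from the quasi-likelihood test of edgeR, Benjamini-Hochberg adjusted ran from 1.66e-10 for dlk-1 to 8.02e-06 for let-756.

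**Figure D2:**
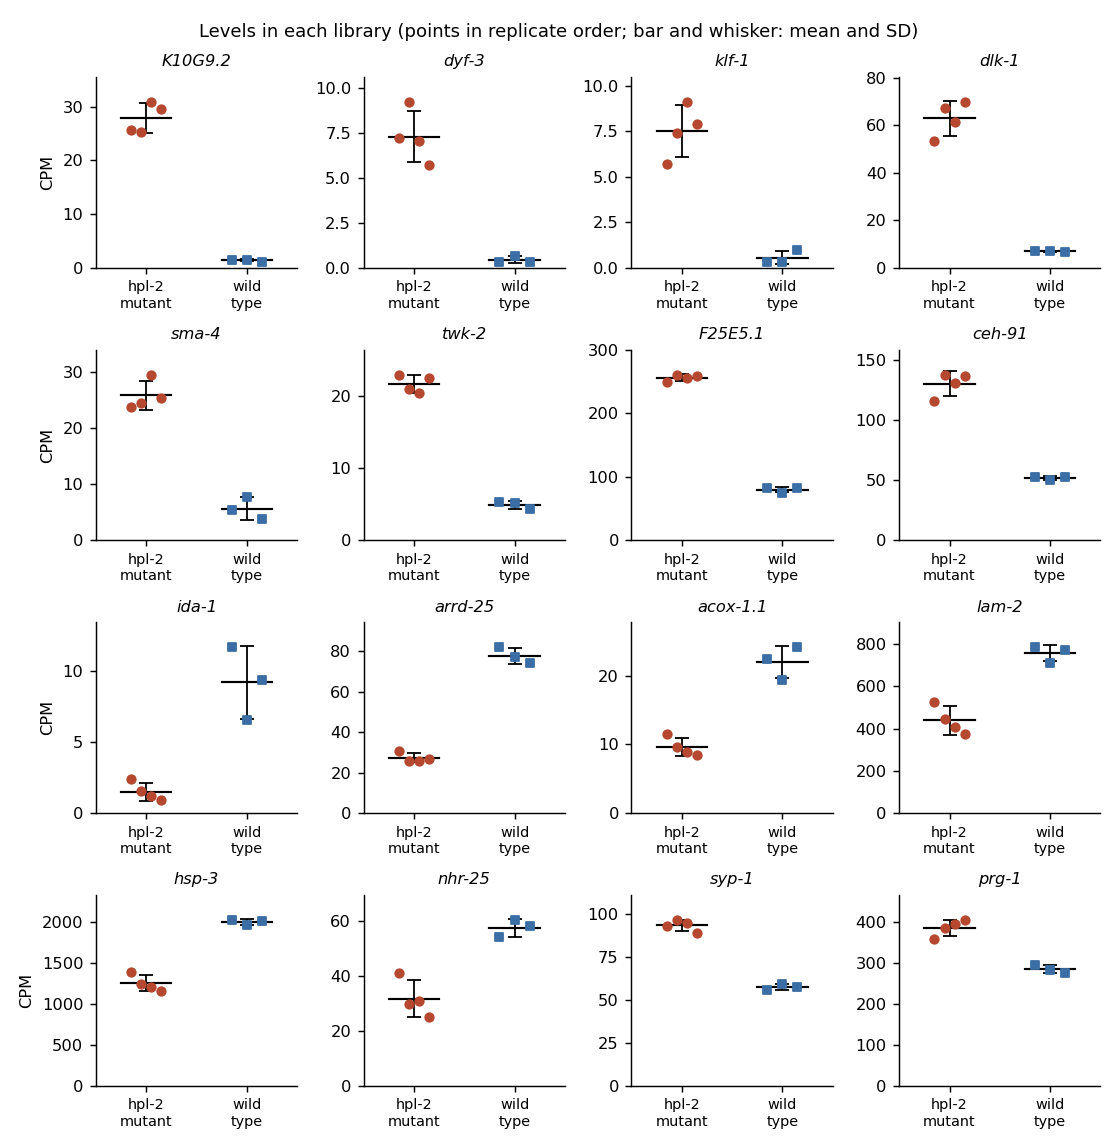
CPM of 16 genes is shown per library, each panel on its own linear axis, with the 4 hpl-2 mutant libraries at the left and the 3 wild-type libraries at the right in replicate order, and a bar with whiskers for the mean and SD. The mutant points lie above the wild-type points in the panels of genes that rose, such as dlk-1 and sma-4, and below them in the panels of genes that fell, such as arrd-25 and lam-2.

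Few well-expressed genes changed as much. Of called genes averaging 100 CPM or more over the 7 libraries, F25E5.1 had the largest rise, at 249, 261, 255 and 259 CPM in the mutant, against 82.8, 75.2 and 82.1 CPM in the wild type (log2 1.68, SE 0.0527). Both groups were tight and did not overlap. The gene wdfy-3, which encodes a large WD repeat and FYVE domain protein, stood at 361, 349, 359 and 346 CPM in the mutant, against 184, 178 and 174 CPM in the wild type (log2 0.99, SE 0.0450). The Furry homolog sax-2, which shapes neurites, averaged 584 ± 23.2 CPM in the mutant and 356 ± 5.76 CPM in the wild type (log2 0.72). The nicalin homolog nra-4, which acts in the assembly of acetylcholine receptors, averaged 603 ± 7.10 CPM in the mutant and 369 ± 11.9 CPM in the wild type (log2 0.71). The AMP-activated kinase gamma subunit gene aakg-5 averaged 176 ± 12.8 CPM in the mutant and 110.1 ± 4.61 CPM in the wild type, with mutant replicate 1 lowest of the mutant libraries.

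Genes that fell included several of the extracellular matrix, of small-molecule metabolism and of stress regulation. The arrestin domain gene arrd-25 stood at 30.8, 25.9, 25.9 and 26.7 CPM in the mutant, against 81.8, 76.9 and 74.0 CPM in the wild type (log2 -1.50, SE 0.112). Even its highest mutant library, replicate 1, lay far under the wild type. The beta-lactamase domain gene lact-4, which overlaps M05D6.3, averaged 16.2 ± 3.19 CPM in the mutant and 50.0 ± 5.44 CPM in the wild type (log2 -1.62). The choline kinase family gene ckb-4 averaged 2.92 ± 0.794 CPM in the mutant and 9.46 ± 2.11 CPM in the wild type (log2 -1.68).

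Among well-expressed genes that fell, the mutant libraries were more spread. The bZIP factor gene zip-8 stood at 169, 133, 132 and 109 CPM in the mutant, against 262, 256 and 269.8 CPM in the wild type (log2 -0.95, SE 0.106). The glyoxylate cycle gene icl-1, which lets embryos turn fat into sugar, stood at 163, 135, 117 and 112 CPM in the mutant, against 247, 236 and 265 CPM in the wild type (log2 -0.92, SE 0.154). The dystroglycan gene dgn-1, a receptor for basement membrane, stood at 148, 127, 116 and 99.9 CPM in the mutant, against 242, 226 and 240.5 CPM in the wild type (log2 -0.94, SE 0.151). In all 3 genes mutant replicate 1 was the nearest to the wild type and replicate 4 the farthest, and the groups did not overlap. The fibrillin gene fbn-1, which overlaps upp-1, fell with a wider spread, at 99.0 ± 31.4 CPM in the mutant and 188 ± 15.6 CPM in the wild type, and its call had an adjusted p of 0.0126 by the quasi-likelihood test of edgeR, Benjamini-Hochberg adjusted.

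Transcripts loaded by the mother and transcripts of the germ line rose together, mostly by less than 1.5-fold. In the maternal list of 32 genes, 22 rose (68.8%) and 0 fell (median log2 0.29), against a median of 0.00 over all genes tested. Members of every list are counted here and below where they passed the filter on low counts. The counts are to be read beside the 20.2% of all genes tested that rose and the 21.6% that fell. Of 42 meiosis genes 28 rose (66.7%) and 0 fell (median log2 0.35). By edgeR at an unadjusted p below 0.05, 0 maternal and 1 meiosis gene were lower, and DESeq2 called 0 lower in both lists. Of 30 P granule and germ cell genes 20 rose (66.7%) and 1 fell (3.33%, median log2 0.24). Without mutant replicate 1 the counts that rose were 23, 26 and 22, and 2 genes of the P granule list fell. The maternal marker sum given above was taken over the same maternal list and is not a separate observation. The part of the maternal and early zygotic marker differences in the meiosis and P granule results was not tested. The 81 genes of the sperm list, of which 9 were tested, also had higher sums, at 126 to 136 CPM in the mutant and 95.35 to 104 CPM in the wild type.

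**Figure D3:**
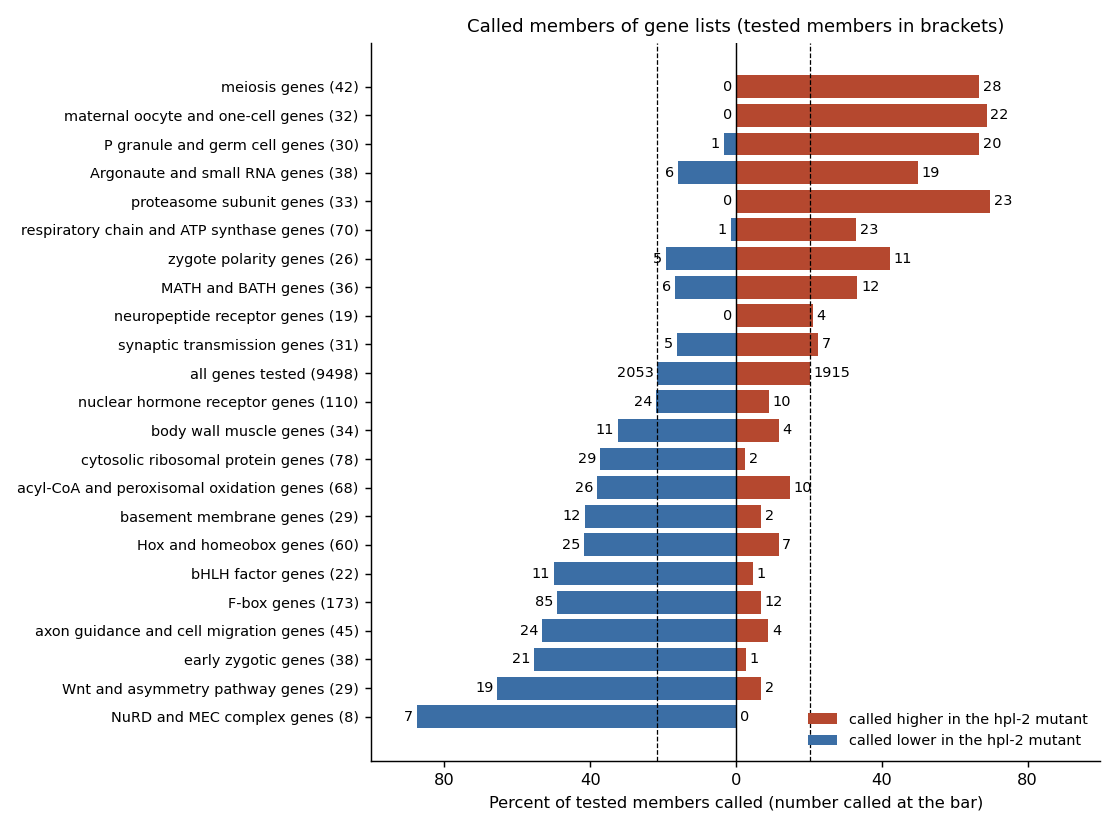
For a selection of gene lists that were chosen with their results in view, bars give the percent of tested members called higher (to the right) and lower (to the left) in the hpl-2 mutant, with counts of members at the bars and dashed lines at the 20.2% and 21.6% of all genes tested. Maternal, meiosis and proteasome genes reach far to the right, and early zygotic, axon guidance and F-box genes reach to the left.

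The RNA-binding protein gene daz-1, which acts in oogenesis, stood at 403, 438, 453 and 483 CPM in the mutant, against 303, 315 and 319 CPM in the wild type (log2 0.51, SE 0.0688). Mutant replicate 1 was nearest to the wild type, without overlap. The zygote polarity genes mex-5 and mex-6, which encode zinc finger proteins that restrict germ plasm, averaged 1651 ± 103 and 941 ± 46.1 CPM in the mutant, against 1275 ± 17.1 and 732 ± 20.4 CPM in the wild type (log2 0.37 and 0.36). The P granule scaffold gene pgl-1 stood at 292, 306, 303 and 333 CPM in the mutant, against 244, 233 and 229 CPM in the wild type (log2 0.39). The synaptonemal complex gene syp-2, which joins paired chromosomes in meiosis, stood at 45.4, 47.9, 47.4 and 48.4 CPM in the mutant, against 33.6, 33.4 and 30.8 CPM in the wild type (log2 0.54, SE 0.121). The meiotic cohesin gene rec-8 rose by a log2 of 0.42. The genes pgl-1, syp-2 and rec-8 were picked after their values were seen.

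Small RNA genes shared this direction with exceptions. Of 38 tested, 19 rose (50.0%) and 6 fell (15.8%, median log2 0.13), beside 20.2% and 21.6% of all genes tested. The double-stranded RNA channel gene sid-1 stood at 94.9, 97.8, 86.4 and 86.3 CPM in the mutant, against 51.2, 52.4 and 52.7 CPM in the wild type (log2 0.81, SE 0.0661). All mutant libraries were high, and replicate 1 was not the nearest to the wild type. The germline Argonaute gene wago-4 averaged 129 ± 4.41 CPM in the mutant and 82.8 ± 2.10 CPM in the wild type (log2 0.64). The nuclear Argonaute gene hrde-1, which carries silencing between generations, averaged 1099 ± 40.6 CPM in the mutant and 826 ± 18.3 CPM in the wild type (log2 0.41). The Piwi gene prg-1 rose by a log2 of 0.44 and overlaps D2030.12. In contrast ergo-1, an Argonaute of embryonic small RNAs that overlaps pei-2, averaged 808 ± 8.66 CPM in the mutant and 906 ± 11.0 CPM in the wild type (log2 -0.16). The genes hrde-1, prg-1 and ergo-1 were picked after their values were seen.

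Proteasome and respiratory chain genes made narrow shifts. Of 33 proteasome subunit genes 23 rose and 0 fell (median log2 0.17), with 0 lower by edgeR at an unadjusted p below 0.05 and 0 lower in DESeq2. Without wild-type replicate 3 the count that rose was 13. The regulatory particle gene rpn-1 stood at 602, 628, 621 and 648 CPM in the mutant, against 544, 552 and 547 CPM in the wild type (log2 0.19, SE 0.0401). The difference was small beside the level, and the groups did not overlap. Of 70 respiratory chain and ATP synthase genes 23 rose and 1 fell (median log2 0.12). The complex I gene nduf-2.2 averaged 107 ± 4.59 CPM in the mutant and 72.6 ± 3.59 CPM in the wild type (log2 0.56), and the ATP synthase gene asb-1, used in the germ line, averaged 282 ± 15.5 CPM in the mutant and 205 ± 5.40 CPM in the wild type (log2 0.46). Cytosolic ribosomal protein genes went the other way, with 2 of 78 higher and 29 lower (median log2 -0.13), and 17 and 19 lower without wild-type replicate 1 and without mutant replicate 3.

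Genes that the embryo itself first transcribes were lower in the mutant. Of 38 early zygotic genes 1 rose and 21 fell (median log2 -0.22), and 20 fell without mutant replicate 1. The 1 that rose lost its call without any 1 wild-type library or mutant replicate 2, 3 or 4. The SKN-1 dependent gene sdz-4 stood at 80.4, 69.0, 69.7 and 67.9 CPM in the mutant, against 111, 105 and 117 CPM in the wild type (log2 -0.63, SE 0.0668). The homeobox gene ceh-51, which specifies mesoderm of the MS lineage, stood at 38.3, 32.6, 30.8 and 30.6 CPM in the mutant, against 50.4, 46.9 and 46.8 CPM in the wild type (log2 -0.53, SE 0.0798). For both, mutant replicate 1 was highest of the mutant libraries and still under the wild type. The endoderm GATA factor gene end-1, picked after its values were seen, averaged 9.80 ± 3.59 CPM in the mutant and 16.6 ± 1.24 CPM in the wild type (log2 -0.75). Transcripts of the mother and of the embryo thus differed in opposite directions. The stage marker sums given above were taken over these same lists, so they are not a separate observation.

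Many transcription factors of tissue fate fell, beside the 21.6% of all genes that did. Of 96 Hox and homeobox genes 60 were tested, 7 rose and 25 fell (median log2 -0.43), and 3 rose without wild-type replicate 1. Of 25 GATA, SOX and forkhead genes 2 rose and 10 fell (median log2 -0.40). Of 22 bHLH genes 1 rose and 11 fell (median log2 -0.24), and of 15 T-box genes 1 rose and 6 fell. Leaving out single libraries ended the call of both genes that rose, wild-type replicates 1 and 3 and mutant replicates 2 and 4 for the bHLH gene, and wild-type replicate 3 and mutant replicates 1 and 4 for the T-box gene. Of 273 nuclear hormone receptor genes 110 were tested, 10 rose (9.09%) and 24 fell (21.8%, median log2 -0.15). The share that fell was close to the 21.6% of all genes, and the share that rose was below their 20.2%. Without mutant replicate 1, 28 fell. The posterior Hox gene nob-1, picked after its values were seen, stood at 19.1, 14.8, 12.4 and 14 CPM in the mutant, against 25.3, 24.6 and 29.3 CPM in the wild type (log2 -0.81, SE 0.166). Some members of these families, such as ceh-51, nob-1, pha-4 and elt-1, are also on the early zygotic list, whose lower sum in the mutant is given above and whose part in the result was not tested. The Hox genes lin-39, mab-5 and egl-5, which are outside the rule for named genes, did not pass the test. Their log2 changes were -0.21, 0.04 and -0.19 and their mutant means 9.89, 1.04 and 3.94 CPM.

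Regulators of each main tissue were among those that fell. In the pharynx, the forkhead gene pha-4, the organ's selector gene, stood at 79.3, 68.7, 62.2 and 63.4 CPM in the mutant, against 109, 106 and 112 CPM in the wild type (log2 -0.67, SE 0.119). Its mutant libraries all lay under the wild type, replicate 1 the least. In the intestine, the GATA factor gene elt-7 averaged 11.2 ± 0.834 CPM in the mutant and 18.5 ± 1.92 CPM in the wild type (log2 -0.72). In muscle, the SRF-like gene unc-120 averaged 20.5 ± 4.06 CPM in the mutant and 40.4 ± 2.39 CPM in the wild type (log2 -0.98). The MyoD homolog hlh-1, which overlaps B0304.4, averaged 10.1 ± 2.04 CPM in the mutant and 19.7 ± 2.10 CPM in the wild type (log2 -0.95). In the nervous system, the proneural genes cnd-1 and ngn-1 fell by 0.36 and 0.46 on the log2 scale.

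The epidermal regulators split. The nuclear receptor gene nhr-25, needed for epidermal cell fate and moulting, stood at 41.0, 29.7, 30.9 and 24.9 CPM in the mutant, against 54.0, 60.3 and 58.2 CPM in the wild type (log2 -0.86, SE 0.172). The epidermal GATA factor gene elt-1 averaged 121 ± 17.9 CPM in the mutant and 178 ± 8.59 CPM in the wild type (log2 -0.55). In contrast nhr-23, a nuclear receptor of the moulting cycle, stood at 103, 127, 113 and 133 CPM in the mutant, against 80.1, 83.3 and 74.2 CPM in the wild type (log2 0.58, SE 0.0971). Its mutant libraries all exceeded the wild type. Of 16 tested epidermal factor genes 5 rose (31.2%) and 8 fell (50.0%, median log2 -0.43). Only 2 or 3 rose without any 1 wild-type library or mutant replicate 3. Outside the rule for named genes, unc-120, hlh-1, cnd-1, ngn-1, nhr-25 and nhr-23 were picked for their roles after their values were seen.

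Wnt signalling genes, which set cell polarity and fate from the 4-cell embryo on, were mostly lower. Of 29 Wnt and asymmetry pathway genes 2 rose (6.9%) and 19 fell (65.5%, median log2 -0.27). Among ligands, cwn-1 averaged 12.8 ± 1.37 CPM in the mutant and 21.4 ± 2.18 CPM in the wild type (log2 -0.73), while the early ligand gene mom-2 averaged 324 ± 14.2 CPM in the mutant and 282 ± 1.30 CPM in the wild type (log2 0.20). The Frizzled receptor gene lin-17 stood at 21.6, 20.8, 17.7 and 18.6 CPM in the mutant, against 36.1, 32.2 and 37.1 CPM in the wild type (log2 -0.83, SE 0.136). The maternally supplied receptor gene mom-5, which overlaps tsp-7, did not pass the test, at 284 ± 8.50 CPM in the mutant and 282 ± 2.22 CPM in the wild type. Downstream, the beta-catenin gene wrm-1 stood at 121, 112, 108 and 106 CPM in the mutant, against 156, 150.2 and 157 CPM in the wild type (log2 -0.47, SE 0.0638). A second beta-catenin gene, sys-1, averaged 102 ± 10.2 CPM in the mutant and 151 ± 8.59 CPM in the wild type (log2 -0.56). Neither beta-catenin overlapped between the groups. Of the genes of this paragraph only wrm-1 came from the rule for named genes.

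Notch genes went both ways. Of 22 tested 6 rose (27.3%) and 7 fell (31.8%, median log2 0.07), beside 20.2% and 21.6% of all genes tested. The ligand gene apx-1, which acts in the 4-cell embryo, averaged 232 ± 14 CPM in the mutant and 171 ± 6.75 CPM in the wild type (log2 0.44). The receptor gene glp-1, which overlaps ZK507.1, averaged 666 ± 36.5 CPM in the mutant and 531 ± 23.3 CPM in the wild type (log2 0.33). The later ligand gene lag-2 averaged 8.87 ± 1.26 CPM in the mutant and 12.5 ± 1.16 CPM in the wild type (log2 -0.49). These 3 were picked after their values were seen. Of 21 TGF-beta pathway genes 2 rose and 7 fell (median log2 -0.32), and 1 rose without wild-type replicate 2 or 3 or mutant replicate 2 or 4. The gene sma-4 was among those that rose, and the co-SMAD gene daf-3, which acts in dauer formation, averaged 79.4 ± 6.99 CPM in the mutant and 114 ± 4.85 CPM in the wild type (log2 -0.52). Of 28 EGF, FGF and Ras pathway genes 9 rose (32.1%) and 3 fell (10.7%, median log2 0.09).

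Genes by which cells and axons find their way were mostly lower. Of 45 axon guidance and cell migration genes 4 rose (8.89%) and 24 fell (53.3%, median log2 -0.28). The semaphorin gene mab-20 stood at 122, 112, 110.5 and 107 CPM in the mutant, against 195, 171 and 196 CPM in the wild type (log2 -0.73, SE 0.0907). Mutant libraries were close to each other and well under the wild type. The netrin gene unc-6 and its receptor gene unc-5 averaged 24.7 ± 4.72 and 50.4 ± 7.34 CPM in the mutant, against 37.2 ± 1.69 and 73.1 ± 1.03 CPM in the wild type (log2 -0.59 and -0.53). The ephrin gene vab-2 averaged 20.2 ± 2.25 CPM in the mutant and 32.5 ± 2.68 CPM in the wild type (log2 -0.68), while the ephrin receptor gene vab-1, which overlaps ipla-1, did not pass the test (log2 0.06). Slit and its receptor moved oppositely. The Slit gene slt-1 stood at 11.7, 10, 12.9 and 9.67 CPM in the mutant, against 5.77, 7.25 and 5.93 CPM in the wild type (log2 0.81, SE 0.152), and the Robo gene sax-3 averaged 319 ± 10.5 CPM in the mutant and 369 ± 2.00 CPM in the wild type (log2 -0.21). In this paragraph mab-20 came from the rule for named genes and the others were picked after their values were seen.

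Basement membrane genes that fell included chains of laminin, the main polymer of the membrane. Of 29 tested 2 rose and 12 fell (median log2 -0.53), and 15 fell without mutant replicate 1. On the X chromosome lie 12 of the 29, and they hold 7 of the 12 falls. At most 1 rose without any 1 wild-type library or mutant replicate 1, 3 or 4. Together they summed to 2738, 2256, 2122 and 1904 CPM in the mutant, against 3814, 3529 and 3812 CPM in the wild type. The laminin gamma gene lam-2 stood at 528, 445, 408 and 373 CPM in the mutant, against 785, 713 and 771 CPM in the wild type (log2 -0.79, SE 0.124). The laminin beta gene lam-1 stood at 287, 242, 233 and 214 CPM in the mutant, against 436, 419 and 456 CPM in the wild type (log2 -0.84, SE 0.116). Replicates 1 and 4 were the highest and the lowest mutant libraries for both chains, and the groups did not overlap. The laminin alpha gene epi-1, which overlaps K08C7.4, averaged 919 ± 154 CPM in the mutant and 1538 ± 67.0 CPM in the wild type (log2 -0.74). The type IV collagen genes emb-9 and let-2 were low and did not pass the test (log2 -0.10 and -0.01), while let-268, which encodes the lysyl hydroxylase that modifies type IV collagen, averaged 7.83 ± 2.50 CPM in the mutant and 18.6 ± 1.94 CPM in the wild type (log2 -1.23). The genes epi-1, emb-9, let-2 and let-268 were picked after their values were seen.

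Gap junction genes went both ways. Of 15 innexin genes 5 rose (33.3%) and 2 fell (13.3%), beside 20.2% and 21.6% of all genes tested. The germline innexin gene inx-22, which couples oocytes to the gonad sheath, stood at 140, 142, 141 and 143 CPM in the mutant, against 97.4, 96.1 and 86.4 CPM in the wild type (log2 0.60, SE 0.0751). Its partner gene inx-21 stood at 57.6, 56.8, 58.1 and 69.3 CPM in the mutant, against 42.4, 31.7 and 34.1 CPM in the wild type (log2 0.74, SE 0.118). Neither overlapped between the groups. The broadly expressed embryonic innexin gene inx-3, picked after its values were seen, stood at 657, 622, 594 and 581 CPM in the mutant, against 883, 892 and 949 CPM in the wild type (log2 -0.57, SE 0.0684). Of 33 epithelial junction and attachment genes 6 rose and 15 fell (median log2 -0.25), among them the Crumbs family gene eat-20 (log2 -0.48).

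Genes of other chromatin factors changed as well. MET-2 transcript was close to the wild-type level, at 274, 263, 264 and 260.4 CPM in the mutant, against 297, 287 and 279.5 CPM in the wild type (log2 -0.12, SE 0.0404). Its call, with an adjusted p of 0.0274 by the quasi-likelihood test of edgeR, Benjamini-Hochberg adjusted, was lost in 7 of 14 alternatives, with an adjusted p of 0.131 without wild-type replicate 1. Of 17 tested HP1 and H3K9 methylation factor genes, a list that holds hpl-2 and met-2, 3 rose and 7 fell, and 4 fell without any 1 of wild-type replicate 2 or mutant replicates 2, 3 and 4. Of 8 NuRD and MEC complex genes 0 rose and 7 fell (median log2 -0.25), with 0 higher by edgeR at an unadjusted p below 0.05 and 0 higher in DESeq2. The zinc finger gene mep-1, which represses germline genes in somatic cells, stood at 508, 463, 442 and 437 CPM in the mutant, against 683, 669 and 664 CPM in the wild type (log2 -0.54, SE 0.0589). The remodelling ATPase genes chd-3 and let-418, which encode paralogous Mi-2 proteins, fell by 0.52 and 0.25 on the log2 scale.

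Histone-modifying enzymes and synMuv genes had shares of calls close to those of all genes, with single genes that changed clearly. Of 26 Polycomb, H3K36 and H3K4 regulator genes 4 rose (15.4%) and 6 fell (23.1%). The H3K4 methyltransferase gene set-16, a homolog of MLL3 and MLL4, stood at 531, 484, 468 and 431 CPM in the mutant, against 679.6, 685 and 687 CPM in the wild type (log2 -0.51, SE 0.0731). The H3K27 demethylase genes utx-1 and jmjd-3.1 fell by 0.45 and 1.09 on the log2 scale, the second at 31.4, 22.5, 20.1 and 18.1 CPM in the mutant, against 50.4, 47.2 and 50.8 CPM in the wild type. All 3 genes were lower in every mutant library than in any wild-type library. Of 21 DREAM complex and synMuv genes 3 rose (14.3%) and 5 fell (23.8%), and 8 fell when only the 2 genotypes were fitted. The synMuv B gene lin-15B, which shares exons with lin-15A, stood at 661, 671, 657 and 646 CPM in the mutant, against 516, 513 and 512 CPM in the wild type (log2 0.36, SE 0.0308). The synMuv gene lin-8 averaged 95.5 ± 3.78 CPM in the mutant and 63.2 ± 8.49 CPM in the wild type (log2 0.60). The linker histone gene his-24 averaged 1284 ± 165 CPM in the mutant and 2116 ± 73.3 CPM in the wild type (log2 -0.72). In the chromatin lists, chd-3, let-418, jmjd-3.1, lin-15B and lin-8 were picked after their values were seen.

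F-box genes, a very large family whose proteins bring targets to Skp1 and cullin ubiquitin ligases, were lower in large number. Of 322 F-box genes 173 were tested. Of these 12 rose (6.94%) and 85 fell (49.1%, median log2 -0.32), beside 20.2% and 21.6% of all genes tested. Without mutant replicate 1, 89 fell. Few changes were large, with 3 genes at least 2-fold higher and 6 at least 2-fold lower. The gene fbxb-77 stood at 3.94, 2.77, 2.92 and 3.22 CPM in the mutant, against 7.97, 7.75 and 8.24 CPM in the wild type (log2 -1.31, SE 0.211). The gene fbxc-51, the best expressed of those named, stood at 201, 169, 152 and 158 CPM in the mutant, against 305, 311 and 319 CPM in the wild type (log2 -0.88, SE 0.122). In contrast fbxa-145, picked after its values were seen, averaged 6.50 ± 0.547 CPM in the mutant and 2.85 ± 0.569 CPM in the wild type (log2 1.18). Of 32 Skp1-related and cullin genes 2 rose and 14 fell, and skr-7 stood at 391, 383, 388 and 366 CPM in the mutant, against 507, 508 and 515 CPM in the wild type (log2 -0.42, SE 0.0368). MATH and BATH genes, adaptors of another cullin ligase, went both ways, with 36 of 73 tested. Of these 12 were higher (33.3%) and 6 lower (16.7%, median log2 0.15). At least 2-fold changes were more often falls, with 3 genes higher and 5 lower, and under a stricter filter on low counts 2 members were called lower. Members of these families are similar in sequence, and no source used here tells how reads that match several of them were counted.

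Many genes of xenobiotic metabolism and of fat oxidation fell, beside the 21.6% of all genes tested. Of 244 cytochrome P450, UGT, GST, dehydrogenase and P-glycoprotein genes 103 were tested, 9 rose and 38 fell (36.9%, median log2 -0.37), with 2 at least 2-fold higher and 10 at least 2-fold lower. Of 68 acyl-CoA and peroxisomal oxidation genes 10 rose and 26 fell (38.2%, median log2 -0.09). Genes of fatty acid synthesis and elongation did not share this, with 9 of 41 higher and 7 lower (17.1%). All 4 enzymes of the peroxisomal cycle that shortens the side chains of ascaroside pheromones were lower. The first enzyme's gene, acox-1.1, stood at 11.5, 9.55, 8.93 and 8.42 CPM in the mutant, against 22.4, 19.4 and 24.1 CPM in the wild type (log2 -1.19, SE 0.185). The genes maoc-1 (log2 -0.90), dhs-28 (log2 -0.89) and the thiolase gene daf-22 (log2 -0.99) averaged 12.5 ± 1.22, 18.6 ± 5.60 and 10.3 ± 3.25 CPM in the mutant, against 23.4 ± 1.05, 34.8 ± 4.01 and 20.7 ± 2.58 CPM in the wild type. No mutant library of the 4 genes reached the wild-type range. They were picked after their values were seen, and maoc-1 overlaps E04F6.6 and dhs-28 overlaps gei-15.

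Several genes of sulfur and methyl donor metabolism and of protein folding in the endoplasmic reticulum were also lower. Of 21 methyl donor and one-carbon genes 5 rose (23.8%) and 8 fell (38.1%, median log2 -0.21). Only 3 rose without wild-type replicate 1 or 3 or mutant replicate 4. The cystathionine beta-synthase gene cbs-1 stood at 70.2, 57.3, 60 and 57.3 CPM in the mutant, against 93.5, 95.7 and 93.1 CPM in the wild type (log2 -0.62, SE 0.0776). The next enzyme's gene, cth-1, averaged 9.08 ± 1.69 CPM in the mutant and 16.8 ± 0.178 CPM in the wild type (log2 -0.88). Of 55 heat shock and chaperone genes 12 rose (21.8%) and 15 fell (27.3%), beside 20.2% and 21.6% of all genes tested. Without wild-type replicate 3, 6 rose. Of the 55, 2 were at least 2-fold higher and 5 at least 2-fold lower, beside 2.28% and 1.63% of all genes tested. The heat shock genes hsp-16.2 and hsp-16.41 had log2 changes of -2.63 (SE 0.299) and -2.95 (SE 0.346). The part of embryo handling before lysis in these falls was not tested. The BiP gene hsp-3 stood at 1391, 1247, 1211 and 1159 CPM in the mutant, against 2024, 1960.3 and 2013 CPM in the wild type (log2 -0.67, SE 0.0806). The gene xbp-1, which encodes the transcription factor of the unfolded protein response, averaged 86.8 ± 7.49 CPM in the mutant and 137 ± 2.68 CPM in the wild type (log2 -0.65). The second BiP gene, hsp-4, a common reporter of that response, did not pass the test at 484 ± 19.6 CPM in the mutant and 508 ± 9.0 CPM in the wild type (log2 -0.07). The cytosolic Hsc70 gene hsp-1 averaged 1588 ± 81.9 CPM in the mutant and 1288 ± 6.71 CPM in the wild type (log2 0.30). The genes cth-1, hsp-3, hsp-4 and hsp-1 were picked after their values were seen.

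Lists of general cell functions had small median changes. Their shares of calls are to be read beside the 20.2% of all genes tested that rose and the 21.6% that fell. Of 100 cell division genes 17 rose and 35 fell (35.0%, median log2 -0.04), with the topoisomerase gene top-2 at 1947 ± 72.9 CPM in the mutant and 2612 ± 29.0 CPM in the wild type (log2 -0.42). Of 76 DNA replication and repair genes 18 rose (23.7%) and 13 fell (17.1%), near the shares of all genes, and 11 rose without wild-type replicate 3. Of 122 Rab, Arf and vesicle fusion genes 14 rose (11.5%) and 30 fell (24.6%), and 9 rose without wild-type replicate 1. Of 53 spliceosome genes 4 rose and 19 fell (35.8%, median log2 -0.08), and 2 rose without wild-type replicate 2 or mutant replicate 4. Of 57 V-ATPase and lysosome genes 7 rose (12.3%) and 16 fell (28.1%), and 9 rose and 19 fell without mutant replicate 1. Of 34 body wall muscle genes 4 rose and 11 fell (32.4%, median log2 -0.16), and 2 rose without any 1 wild-type library or mutant replicate 1 or 2.

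The spread among the mutant libraries differed between kinds of genes. Over 5727 genes at 20 CPM or more, the median SD of log2 CPM was 0.0709 in the mutant and 0.0549 in the wild type. Genes that rose at least 2-fold were shifted alike in mutant replicates 1 to 4, with median log2 differences from the wild-type mean of 1.19, 1.22, 1.21 and 1.23. Genes that fell at least 2-fold were not, with medians of -0.86, -1.09, -1.14 and -1.20. All differences from the wild-type mean in this paragraph were taken after adding 0.5 CPM. That shrinks them at low levels, so they are not on the scale of the log2 changes given for genes. Genes that rose by less than 1.5-fold had medians of 0.21, 0.27, 0.29 and 0.31. For genes that fell by less than 1.5-fold the medians were -0.23, -0.30, -0.32 and -0.35. Replicate 1 was thus the least shifted in each of these classes, though by little in the large rises. Among lists, basement membrane genes had medians of -0.11, -0.51, -0.70 and -0.74 in replicates 1 to 4. Meiosis genes had medians of 0.27, 0.38, 0.33 and 0.40.

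**Figure D4:**
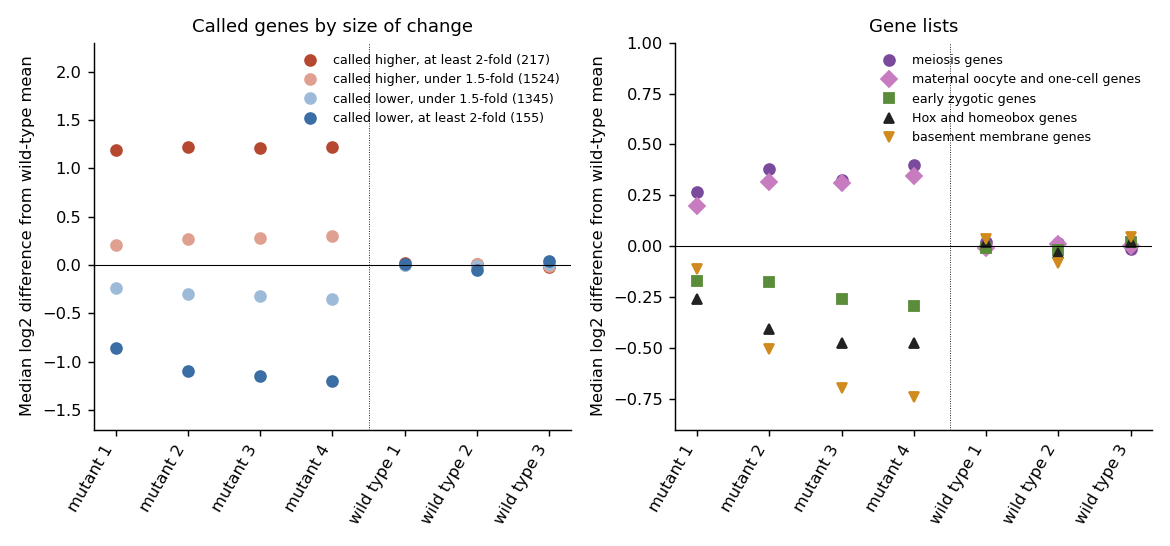
Median log2 difference from the wild-type mean is shown per library, mutant libraries at the left of each panel and wild-type libraries at the right, for classes of called genes (left panel) and for 5 gene lists (right panel). Genes at least 2-fold higher lie near 1.2 in every mutant library, while the genes at least 2-fold lower and the basement membrane genes lie closest to 0 in mutant replicate 1. The differences were taken after adding 0.5 CPM.

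Of genes at 20 CPM or more in the mutant, the 5 with the widest spread among its libraries were sqt-3, mig-6, bath-10, fbn-1 and sym-1. Named genes below that level, such as hsp-16.41 and ins-13, had wider spreads on the log2 scale. The cuticle collagen gene sqt-3 stood at 47.2, 28.5, 24.9 and 18.3 CPM in the mutant, against 40.5, 35.1 and 40.7 CPM in the wild type. Mutant replicate 1 lay above the wild-type range and replicates 2 to 4 below it, and the gene did not pass the test. The papilin gene mig-6 had mutant libraries from 20.4 to 45.7 CPM and wild-type libraries from 44.2 to 52.4 CPM, and did not pass the test either (log2 -0.60, SE 0.275). The gene bath-10 fell in spite of its spread, at 30.8, 17.1, 15.5 and 18.3 CPM in the mutant, against 39.4, 44.2 and 44.7 CPM in the wild type (log2 -1.06, SE 0.192). Late differentiation markers, with sums of 903, 766, 715 and 658 CPM in mutant replicates 1 to 4, had the order of replicates of mig-6 and of sqt-3, itself one of these markers, and their part in this spread was not tested.

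By position, genes that rose at least 2-fold lay more often on the arms of the autosomes, taken as the outer 30% of the length at each end, than in the centres. On the arms 139 of 4206 tested genes (3.3%) rose at least 2-fold, against 49 of 4000 in the centres (1.23%). Genes that fell at least 2-fold also lay more often there, with 82 on the arms (1.95%) and 39 in the centres (0.975%). The share that rose was higher on the arms at every level compared. Under 5 CPM it was 96 of 1000 (9.6%) on the arms and 39 of 683 (5.71%) in the centres. Among genes between 5 and 20 CPM it was 33 of 802 (4.11%) on the arms and 6 of 618 (0.971%) in the centres, and among genes at 20 CPM or more it was 10 of 2404 (0.416%) on the arms and 4 of 2699 (0.148%) in the centres. Falls of that size had shares of 4.4%, 3.62% and 0.374% on the arms and 4.54%, 0.971% and 0.0741% in the centres at these 3 levels, so that they did not lie more often on the arms under 5 CPM. Small rises did not follow this order, as 18.3% of arm genes and 25.1% of centre genes were called higher at any size. On the X chromosome 415 of 1122 genes fell (37.0%), against 19.6% on the autosomes, and 2.5% fell at least 2-fold, against 1.63% of all genes. X-linked genes held 7 of the 12 falls of basement membrane genes, 10 of 25 of homeobox genes and 6 of 24 of axon guidance genes. They held 1 of 85 falls of F-box genes and 1 of 21 of early zygotic genes. The lists differ in how many members lie on the X. These were 12 of 29 tested basement membrane genes, 14 of 60 homeobox genes and 8 of 45 axon guidance genes. For F-box genes it was 5 of 173 and for early zygotic genes 4 of 38. The part of X linkage in these lists was not tested. Neighbouring genes are not independent, and weak genes could pass the low-count filter through mutant libraries in which they were high. The shares by position are therefore given as a description.

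Genes that rose at least 2-fold also lay next to each other. Of 138 such genes with a tested neighbour, 18 (13%) lay beside another gene that rose at least 2-fold, against 2.26% of the 7920 tested genes with a tested neighbour. These were 9 pairs, of which 4 share exon bases, so that their calls may rest in part on the same reads. For genes that fell at least 2-fold it was 13 of 108 (12.0%), against 1.78%. Among them the neighbours ins-13 and acdh-2 share exon bases as well. The 5 pairs that rose without shared exon bases were Y53H1B.2 with cutl-10, K10G9.2 with vglu-2, gcy-19 with F02E11.2, eat-2 with Y48B6A.5 and K07D4.5 with K07D4.9. Among neighbours that fell were the stress genes hsp-16.2 and hsp-16.41, and the F-box gene fbxb-77 with Y17G9B.11.

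**Figure D5:**
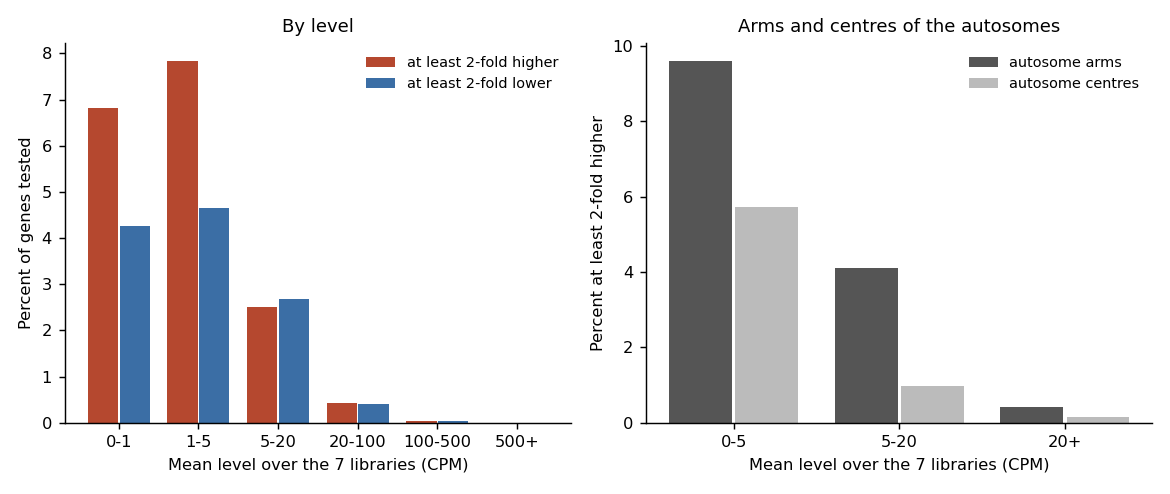
The percent of tested genes called at least 2-fold higher or lower in the hpl-2 mutant is shown by mean CPM over the 7 libraries (left), and the percent called at least 2-fold higher is shown by level for arms and centres of the autosomes (right). The share that rose at least 2-fold was 7.84% between 1 and 5 CPM and 0.436% between 20 and 100 CPM, and between 5 and 20 CPM it was 4.11% on the arms against 0.971% in the centres.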

How the data were processed

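RNA of early embryos was measured in 14 samples, per the labels. The authors deposited raw counts per gene for 20392 genes, with gene widths beside them, and 0 columns of sample values were left unused. Libraries came from a stranded total RNA kit with ribosomal RNA depletion, per the labels' protocols. Per the submitters' processing notes, Trimmomatic 0.39 and the build ce10 were used. The sources used here give no aligner, counting program, use of strand or treatment of reads with several matches. Values of genes that overlap and of near-identical copies are therefore uncertain. Symbols, chromosomes and gene types came from an annotation of WBcel235, matched by gene identifier.

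Groups followed the genotype in the labels. Counts of all 14 libraries entered a 4-group fit in edgeR 4.0.16 (R 4.3.3) with filterByExpr, TMM scaling and the quasi-likelihood test, and the contrast was hpl-2 mutant minus wild type. Genes with a Benjamini-Hochberg adjusted p below 0.05 over 9498 genes were called. The SE is the size of the log2 change divided by the square root of the F statistic. The fit was tested on simulated data. A count of 0 allows up to 3 counts, which is 0.462 to 0.537 CPM per mutant library and 0.494 to 0.509 CPM per wild-type library, and such limits cover counting error only. Same-numbered mutant and wild-type libraries did not deviate together (correlations of 0.0362, -0.0288 and -0.129), so the numbers were not treated as pairs.

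Alternatives were DESeq2 1.42.0, other scalings and filters, a fit of the 2 genotypes alone, a replicate block and leaving out each library. Gene lists and the comparison were chosen with earlier results of these data known. Named genes were hpl-2 and met-2, the 15 largest rises and 15 largest falls of called genes whose libraries do not overlap with at least 5 CPM in the higher group, the 8 largest in each direction with a mean of at least 100 CPM, the 2 called genes of smallest adjusted p in the majority direction of each list with at least 3 called, the 5 most variable in the mutant with at least 20 CPM and the 6 highest genes at 0 counts in every wild-type library. Most genes outside this rule are marked in the text. No sequences were used here.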

Additional observations from a re-analysis of the deposited data

Results flagged for a closer look

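A single mutant library lay far from the other 3 for 9 of 186 named genes and 3 of 75 list sums, by the ratio of its gap to the range of the 4. Chance gives such a gap in about 1 in 20 groups. Replicate 1 was the library in 8 of these 12 cases.

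Of the list sums, C-type lectin genes summed to 3363 CPM in mutant replicate 1, against 3637 to 3648 CPM in the other mutant libraries and 3189 to 3278 CPM in the wild type. Notch pathway genes summed to 2808 CPM in mutant replicate 1, against 2899.6 to 2918 CPM in the other mutant libraries and 2735 to 2745 CPM in the wild type. Nuclear envelope and pore genes summed to 18757 CPM in mutant replicate 1, against 19428 to 19557 CPM in the other mutant libraries and 18592 to 18709 CPM in the wild type. In all 3 sums replicate 1 lay between the other mutant libraries and the wild type.

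Of the genes, aakg-5 stood at 157 CPM in mutant replicate 1 and 180.4 to 185 CPM in the others. The genes arrd-25 (30.8 CPM, others 25.9 to 26.7), hsp-16.2 (1.42 CPM, others 1.03 to 1.08), mml-1 (123 CPM, others 111 to 112) and sdz-4 (80.4 CPM, others 67.9 to 69.7) were highest in replicate 1. In mutant replicate 4, inx-21 stood at 69.3 CPM (others 56.8 to 58.1), rpn-7 at 479.9 CPM (others 429 to 437) and spe-15 at 17.7 CPM (others 12.6 to 13.4). In mutant replicate 3, nhr-34 stood at 27.8 CPM (others 32.5 to 33.3).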

How the results depend on the processing

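The counts of genes that rose and fell were 1915 and 2053, of which 217 and 155 by at least 2-fold. They stayed within 1.5 times of these values with the 2 genotypes fitted alone, with relative log expression factors, with library size alone and in DESeq2 (1732 and 1863). Both filter settings and 1 library moved a count further. Without a filter on low counts 338 genes rose at least 2-fold, and with a stricter filter at a mean of 5 CPM, which tests fewer genes, 60 rose and 61 fell at least 2-fold. Leaving out each library in turn gave 1458 to 1949 genes that rose, 1661 to 2071 that fell, 206 to 218 that rose at least 2-fold and 129 to 257 that fell at least 2-fold. The 257 came without mutant replicate 1, and the cause was not tested. With a replicate block, whose numbers do not pair these samples, 1639 rose, 1814 fell, 214 rose at least 2-fold and 121 fell at least 2-fold. Of 217 genes that rose at least 2-fold 152 kept their call without each library in turn, and of 155 that fell 110 did. Of 2584 values of the 186 named genes under alternatives 2558 kept their side of the threshold and their direction, and 5 of the 184 called genes lost their call under at least 1 alternative. The direction of the majority turned under at least 1 alternative in 9 of 71 lists. Weakly expressed genes limit what can be called, since 3 counts are about 0.5 CPM here.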

Other observations

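Several pairs of paralogous genes moved in opposite directions, with one copy higher and the other lower in the mutant. The pairs were picked after their values were seen. Of the fructose-bisphosphate aldolase genes, aldo-2, which overlaps F01F1.3, stood at 873, 932, 953 and 934 CPM in the mutant, against 716, 749 and 728 CPM in the wild type (log2 0.34, SE 0.0415). Its paralog aldo-1 stood at 13.4, 11.7, 10.7 and 13.4 CPM in the mutant, against 25.8, 31.0 and 30.2 CPM in the wild type (log2 -1.24, SE 0.109). Of the eIF5A genes, iff-1, used in the germ line, averaged 291 ± 7.30 CPM in the mutant and 238 ± 14.2 CPM in the wild type (log2 0.29), and iff-2 averaged 37.4 ± 6.28 CPM in the mutant and 66.3 ± 2.26 CPM in the wild type (log2 -0.82). Of the ribosomal protein L11 genes, rpl-11.1 averaged 66.0 ± 3.87 CPM in the mutant and 56.6 ± 2.21 CPM in the wild type (log2 0.22), and rpl-11.2 averaged 13.1 ± 0.944 CPM in the mutant and 20.4 ± 3.94 CPM in the wild type (log2 -0.63). The ribosomal genes rpl-25.2 and rpl-25.1 differed alike, with log2 changes of 0.24 and -0.89, as did the cap-binding protein genes ife-1 (log2 0.22, overlapping dro-1) and ife-2 (log2 -0.42). Paralogs that rose and fell had no overlap between mutant and wild-type libraries, and how reads matching both copies were counted is not known.

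Some genes had no counts in the wild type. Of 5115 genes at 0 counts in all wild-type libraries, 64 had at least 1 count in every mutant library, and of 4079 genes at 0 in all mutant libraries 15 had at least 1 count in every wild-type library. The first condition asks for 0 counts in 3 libraries and the second in 4. Of the 64, C08F11.7 on chromosome IV stood highest, at 15, 15, 10 and 11 counts in the mutant (2.09 CPM) and 0 counts in each wild-type library. Set against 3 counts over the wild-type group, or 0.168 CPM, it was at least 12.5-fold higher. The next by mutant level among all genes at 0 in the wild type, M04G7.2, C45H4.18, clec-168 and npr-30, held 15, 15, 14 and 13 counts over the 4 mutant libraries and did not pass the filter on low counts.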
